A study of Danio rerio with 15 samples.

Results

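Gene levels at the amputation plane of the zebrafish fin were compared between 14 and 4 days post amputation (dpa), across all genes, to describe what had replaced the early programme by the later time and what persisted. The comparison used the 6 libraries labelled 14 or 4 dpa, 3 of each, out of 15 in the series. The series follows wild-type (WT) fins at 0, 4, 7, 14 and 21 dpa by bulk RNA-seq, and its title concerns Erk signalling and memory of skeletal size. Each library was made from the pooled tissue of 10 WT animals, taken from 1 bone segment proximal and 1 distal to the cut. The 14 dpa group is therefore WT plane tissue 14 days after the cut, and the 4 dpa group is WT plane tissue labelled 4 days after it, for which the series design text gives 3.5 days. No treatment, transgene, age or sex is given for either group. The plane is a fixed place on the ray: the outgrowth forms beyond it at the earlier time and has grown past it at the later time. Nothing in the sources says whether the pools came from separate clutches or days, so the p-values measure the spread between pools.

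A cut fin regrows from the blastema, a mass of dividing mesenchymal cells under a thickened wound epidermis. Fgf, Wnt, activin, Igf, retinoic acid and Bmp signals sustain it, and stiff fibrils called actinotrichia support its edge. Osteoblasts that divide in the early outgrowth later lay down and mineralize the bony ray, while nerves, vessels and pigment cells return.

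The values are TPM, a relative transcript abundance corrected for transcript length, with the rRNA gene zgc:158463 removed and the rest scaled by median of ratios (scaled TPM). The tested genes, 10234 of 14836, reached a TPM of 1 in 3 or more of the 15 libraries and were compared with limma on log2(scaled TPM + 1). Differences below are 14 minus 4 dpa on that scale, which understates changes of low genes, and a gene is said to rise or fall where the p-value adjusted over all tested genes is under 0.05. A gene is called held where both ends of the 95% interval of its difference lie within 1 on the log2 scale. A change beyond 2-fold in scaled TPM + 1 is then outside the interval. For low genes a change beyond 2-fold in scaled TPM itself is not excluded. The gene cdc6, for example, was held at a mean of 0.997 at 14 dpa against 2.19 at 4 dpa.

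Limits of the libraries bear on everything that follows. The removed rRNA gene took 13.3 to 47.4% of TPM at 14 dpa and 8.996 to 71.6% at 4 dpa, and relative read depth outside it, with the mean library's total depth at 1, was 0.397 to 0.657 at 14 dpa and 0.126 to 1.27 at 4 dpa (exact two-sided permutation tests, p = 0.9 and 0.4, where the smallest possible is 0.1). The library labelled 4 dpa replicate 3 stood apart, with the highest rRNA share, the lowest depth and 8466 genes at a TPM of 1 or more, against 9349 to 9985 in the other 5. Spearman correlations across genes were 0.956 to 0.967 among the 14 dpa libraries, 0.908 to 0.984 among the 4 dpa libraries and 0.861 to 0.911 between the times. Small offsets in effective transcript length, recovered from the steps of low values, put the 3 libraries of 14 dpa in one set (-0.938 to -0.717%) and the 3 of 4 dpa in another (0.538 to 0.878%). Within these 6 libraries the set and the time cannot be told apart, and only 7 dpa, with replicate 2 in the set of the 14 dpa libraries and replicates 1 and 3 in the other, ties the sets together.

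The transcriptome at the plane differed widely between the times, with more large falls than large rises. At 14 dpa 788 genes were higher (7.70% of those tested) and 943 were lower (9.21%), 1731 in all (16.9%). Differences of at least 1 on the log2 scale were seen in 268 of the genes that rose and 428 of those that fell. The 3 libraries of each time did not overlap for 3860 genes (37.7%), among them 1712 of the 1731. A larger group, 6571 genes (64.2%), was held within 2-fold in scaled TPM + 1. Of these 252 also passed the test with small differences, and 2184 genes were neither called nor held. Among the 2546 genes with a mean of at least 10 scaled TPM at both times, 1265 (49.7%) were held and 398 (15.6%) were called.

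How many genes passed depended on the processing, while nearly all directions held. The genes were picked by the main fit and the refits reuse the same libraries, so the kept directions are not independent support. Without 4 dpa replicate 3 1624 genes passed (15.9%), 708 of them higher (6.92%) and 916 lower (8.95%), 5961 were held (58.2%), and 1360 of the 1731 genes kept their call with 0 of opposite sign. Without 14 dpa replicate 2 it was 1114. With library set as a covariate, which leaves the contrast to rest on the 7 dpa libraries, 200 genes passed (1.95%), 69 higher (0.674%) and 131 lower (1.28%). Of the 1731 genes 190 kept their call and 3 changed sign, and 2330 of all tested genes were held (22.8%). Unscaled deposited TPM gave 482 (4.71%), 203 higher (1.98%) and 279 lower (2.73%). Rescaling to a fixed total after removing the rRNA gene moved the median gene by -0.16 and gave 238 higher (2.33%) against 914 lower (8.93%), so the balance between rises and falls depends on the scaling, with 0 calls of opposite sign.

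**Figure D1:**
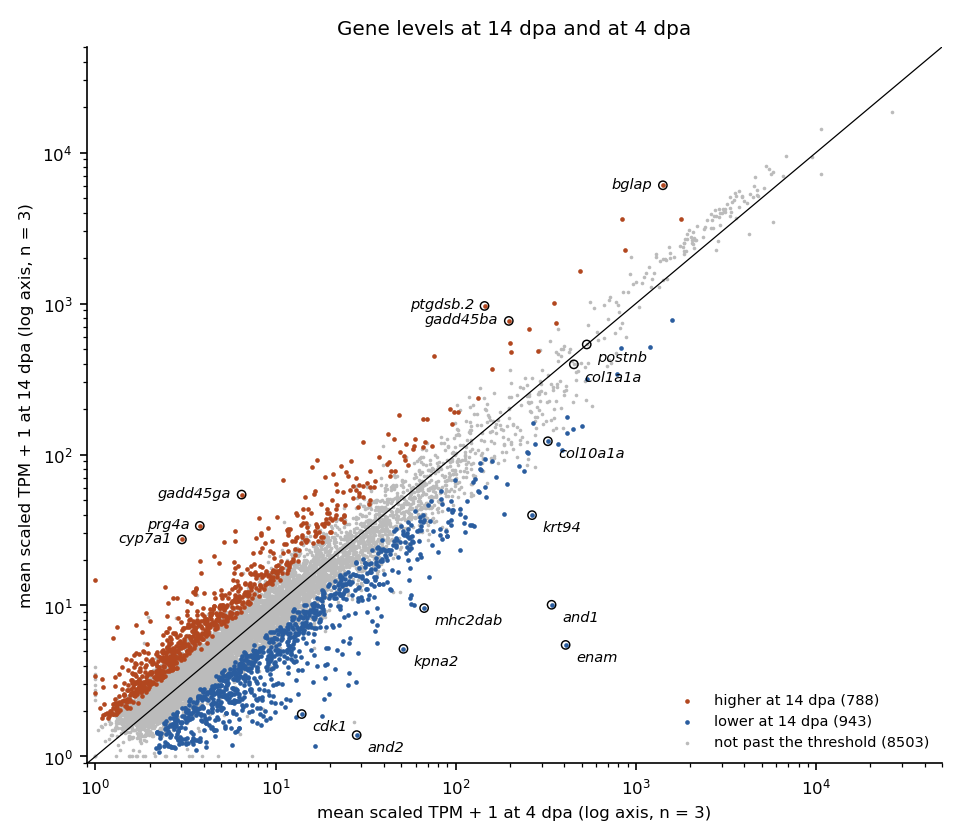
Mean scaled TPM + 1 at 14 dpa (vertical, log axis) against 4 dpa (horizontal, log axis), one point per tested gene, means of 3 libraries. The line marks equal levels. The 788 genes that rose lie above it and the 943 that fell below, and of the labelled genes enam, and1 and and2, of fin-fold and enamel-type matrix, lie farthest below it.

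The genes of the 12 largest falls, chosen among those with a mean of at least 10 scaled TPM at the higher time, fell into a few kinds: fin-fold and enamel-type matrix (enam, and1, and2, scpp7), cell division (kpna2, ube2c, rrm2, ccnb1, cdk1, mad2l1), a keratin (krt94) and an MHC class II chain (mhc2dab). Those of the 12 largest rises were cyp7a1, prg4a, gadd45ga, ptgdsb.2, sult2st3, ccl19b, foxn1, cyp1a, pik3ip1, hsd17b7, eif4ebp3 and plekhf1. None of the 12 rises is a gene of bone matrix, although bglap, which encodes osteocalcin, also rose and was one of the 10 genes with the highest mean at 14 dpa and not one of the 10 at 4 dpa. In bulk tissue, fewer cells of a type and less RNA per cell cannot be told apart, for these genes and for all that follow.

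Cell division genes were lower throughout. All 33 tested genes of DNA replication and all 27 of mitosis were lower at 14 dpa, against 9.21% of all genes, with median differences of -1.36 and -1.59 where the median gene was at 0.0. The summed level of the replication list was 97.1, 103 and 106 scaled TPM in the 14 dpa libraries and 356, 402 and 369 in the 4 dpa libraries. The mitosis list summed to 18.9, 18.7 and 22.2 at 14 dpa against 182, 212 and 149 at 4 dpa, and neither sum overlapped between the times. At 7 dpa these sums were already 143 to 157 for replication and 22.8 to 33.9 for mitosis, and at 0 dpa they were 101 to 127 and 25.0 to 31.8.

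Within these lists the mitotic kinase cdk1 had 0.650, 0.976 and 1.1 scaled TPM in the 14 dpa libraries and 12.9, 15.6 and 10.5 in the 4 dpa libraries (log2 difference -2.86, SE 0.25, adjusted p = 6.41e-06). The cyclin that activates it, ccnb1, was at 1.89, 1.58 and 1.27 against 20.1, 24.2 and 12.4 (log2 difference -2.90, SE 0.23, adjusted p = 4.04e-06). Every 4 dpa library stood several-fold above every 14 dpa library for both genes. For rrm2, the regulated subunit of the enzyme that makes deoxyribonucleotides, the values were 0.842, 1.83 and 1.52 at 14 dpa and 17.5, 18.7 and 16.5 at 4 dpa (log2 difference -2.97, SE 0.20, adjusted p = 1.71e-06), with less spread among the 4 dpa libraries than for cdk1. The replication clamp pcna was less reduced, at 17.8, 21.7 and 23.4 against 57.8, 67.5 and 61.8 (log2 difference -1.54, SE 0.19, adjusted p = 8.78e-05). The proliferation antigen mki67 was at 0.668 against 6.87, and the helicase subunit mcm5 at 2.05 against 9.38 (differences -2.23 and -1.77, adjusted p = 3.46e-06 and 1.08e-05).

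The lower level of division genes was also seen with other processing. Without 4 dpa replicate 3, 31 of 33 replication genes and 27 of 27 mitosis genes were lower, and with library set as a covariate 18 and 22 were, where 1.28% of all genes were. The fall of the origin-licensing factor cdc6 was small enough to lie within the bounds used for held genes as well (log2 difference -0.68, SE 0.15, adjusted p = 0.00545). Machinery that supplies growing cells with ribosomes did not follow to the same extent. Of 25 ribosome biogenesis genes 5 were lower, 1 was higher and 16 were held, against 9.21%, 7.70% and 64.2% of all genes. The list, with a median of -0.25, summed to 307 to 342 scaled TPM at 14 dpa against 411 to 455.5 at 4 dpa, without overlap. The nucleolar methyltransferase fbl (29.3 ± 3.42 against 52.4 ± 4.81 scaled TPM, SD, n = 3, difference -0.82, adjusted p = 0.0125) fell, while the RNA helicase ddx21 rose (21.4 ± 1.80 against 10.0 ± 2.39, difference 1.04, adjusted p = 0.00163). The call of fbl did not survive 2 of 15 single-library omissions, without 4 dpa replicate 1 and without 14 dpa replicate 2 (adjusted p = 0.0521 and 0.0518). Calls of gar1, nop58, rrs1 and dkc1, which also fell, did not survive 4, 4, 3 and 1 of the 15 (adjusted p up to 0.0876, 0.124, 0.0797 and 0.0629). Under the library set covariate 0 of the 25 passed, the adjusted p of fbl being 0.0893 and that of ddx21 0.228.

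Actinotrichia and the provisional matrix of the outgrowth were the second early group to be lower. Of 11 tested members 8 fell, 0 rose and 3 were held, against 9.21%, 7.70% and 64.2% of all genes, with a median of -1.29. The list summed to 748 to 816 scaled TPM at 14 dpa and 1101 to 1663 at 4 dpa. Without 4 dpa replicate 3 the list had 6 lower, on unscaled TPM 5 and with library set as a covariate 3. The actinodin and1, a structural protein of actinotrichia, was at 9.82, 9.96 and 7.56 scaled TPM in the 14 dpa libraries and 381, 519 and 118 in the 4 dpa libraries (log2 difference -4.84, SE 0.41, adjusted p = 6.21e-06). Its relative and2 was at 0.695, 0.363 and 0.0983 against 27.2, 44.5 and 9.95 (log2 difference -4.14, SE 0.36, adjusted p = 6.22e-06). The groups did not overlap for either gene, although 4 dpa replicate 3 was well under the other 4 dpa libraries, and without it the falls were larger (-5.48 and -4.74).

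The other members of that list that fell did so less steeply. Tenascin C (tnc), an extracellular matrix protein known from wound and blastema tissue, was at 1.70, 1.59 and 1.28 at 14 dpa against 8.88, 9.00 and 8.09 at 4 dpa (log2 difference -1.94, SE 0.18, adjusted p = 8.77e-06), a difference far beyond the spread within either time. Fibronectin 1b (fn1b) was at 33.0, 39.7 and 25.6 against 87.3, 79.6 and 209 (log2 difference -1.78, SE 0.39, adjusted p = 0.00600), where 4 dpa replicate 3 was the highest library and the difference was -1.35 without it. The microfibril genes fbn2b (log2 difference -1.56, SE 0.29, adjusted p = 0.00211) and mfap2 (log2 difference -1.29, SE 0.24, adjusted p = 0.00179) also fell. Of these 6 genes, and1, and2 and tnc kept their call with library set as a covariate (adjusted p of at most 0.00462). For fn1b, fbn2b and mfap2 the adjusted p was then 0.168, 0.0605 and 0.318, with differences of -2.17, -2.07 and -1.03. Calls of fn1a and col5a2a, which also fell, did not survive 4 and 5 of 15 single-library omissions.

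Enamelin (enam), an enamel matrix protein in mammals, had the largest fall of the genes named here. Its level was 4.97, 5.15 and 3.33 scaled TPM in the 14 dpa libraries and 469.6, 572 and 178 in the 4 dpa libraries (log2 difference -6.07, SE 0.37, adjusted p = 5.55e-07), so the lowest 4 dpa library was still far above the highest 14 dpa library. At 0, 7 and 21 dpa it averaged 3.89, 19.9 and 5.40. The related secretory calcium-binding phosphoprotein gene scpp7 was at 0.280, 0.234 and 0 against 21.3, 17.7 and 7.87 (log2 difference -3.73, SE 0.29, adjusted p = 3.81e-06), and was listed at 0 in one 14 dpa library. Both kept their call with library set as a covariate (adjusted p = 0.00131 and 0.00414). Another skeletal gene, col10a1a, encodes the short-chain collagen of hypertrophic cartilage in mammals and of osteoblasts in fish. It was at 119, 117 and 128 against 336, 326 and 309 (log2 difference -1.41, SE 0.22, adjusted p = 4.79e-04), with tight groups at both times, but missed the threshold with the covariate (-1.26, adjusted p = 0.148).

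In the list of blastema signals and related genes, 3 of 14 tested genes fell, 1 rose and 8 were held. Over all genes 9.21% were lower, 7.70% higher and 64.2% held. The list is not made only of sustaining signals, since it holds the retinoic acid degrading enzyme cyp26b1, which was held. Leptin b (lepb), a hormone gene induced in regenerating fins and hearts, was at 0.626, 0.783 and 1.07 scaled TPM at 14 dpa and 16.5, 15.6 and 4.10 at 4 dpa (log2 difference -2.65, SE 0.36, adjusted p = 2.09e-04). Even its lowest 4 dpa library was above the 14 dpa ones. Insulin-like growth factor 2b (igf2b) was at 10.4, 9.60 and 9.10 against 18.3, 18.1 and 14.9 (log2 difference -0.75, SE 0.18, adjusted p = 0.00912), without overlap. The activin subunit inhbaa was at 2.65 against 5.35 (log2 difference -0.82, SE 0.22, adjusted p = 0.0211), and its call did not survive 4 of 15 single-library omissions (adjusted p up to 0.0911, without 14 dpa replicate 2). The bone morphogenetic protein gene bmp2a rose, at 9.29, 6.98 and 6.58 against 4.11, 4.75 and 2.58 (log2 difference 0.85, SE 0.19, adjusted p = 0.00736). None of these 4 passed with library set as a covariate (adjusted p = 0.0651 for lepb and at least 0.326 for the others).

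In the epidermis the 2 keratins krt93 and krt94 fell together. Keratins did not all fall, since krtt1c19e, which is in no list, rose (values under other observations). krt94 was at 38.8, 37.4 and 39.8 scaled TPM in the 14 dpa libraries and 269, 247 and 277 in the 4 dpa libraries (log2 difference -2.74, SE 0.26, adjusted p = 1.08e-05). krt93 was at 8.37, 8.17 and 11.3 against 56.1, 51.3 and 58.8 (log2 difference -2.47, SE 0.21, adjusted p = 6.22e-06), and both kept their call with library set as a covariate (adjusted p = 0.0110 and 0.00362). Libraries of one time were nearly level for both genes. Related keratins share sequence, and how reads between them were divided was not examined. Of the 10 tested genes of the basal epidermis list 1 rose, 2 fell (both keratins) and 6 were held, against 7.70%, 9.21% and 64.2% of all genes. With library set as a covariate 0 were held. The basal keratin krt5 was one of the 6 (3184 ± 46.6 against 2627 ± 778, SD, n = 3) and was not held without 4 dpa replicate 3 (difference 0.54). The gene that rose was col17a1a (24.8 against 12.8, log2 difference 1.00, SE 0.30, adjusted p = 0.0350). Its call did not survive 5 of 15 single-library omissions (adjusted p up to 0.155). In the upper layers 7 of 13 genes fell and 0 rose, against 9.21% and 7.70% of all genes. The secretory cell gene agr2 was one of the 7 (15.2, 12.8 and 22.4 against 60.8, 62.8 and 41.3, log2 difference -1.67, SE 0.40, adjusted p = 0.00975). The calls of jupa, ppl, evpla, anxa1c, krt17 and dsc2l did not survive 11, 11, 4, 4, 3 and 1 of 15 single-library omissions. The list summed to 22995 to 34812 at 14 dpa against 27151 to 50120 at 4 dpa, which overlap. Only 3 of the 13 fell without 4 dpa replicate 3, against 8.95% of all genes, and 0 passed with library set as a covariate.

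**Figure D2:**
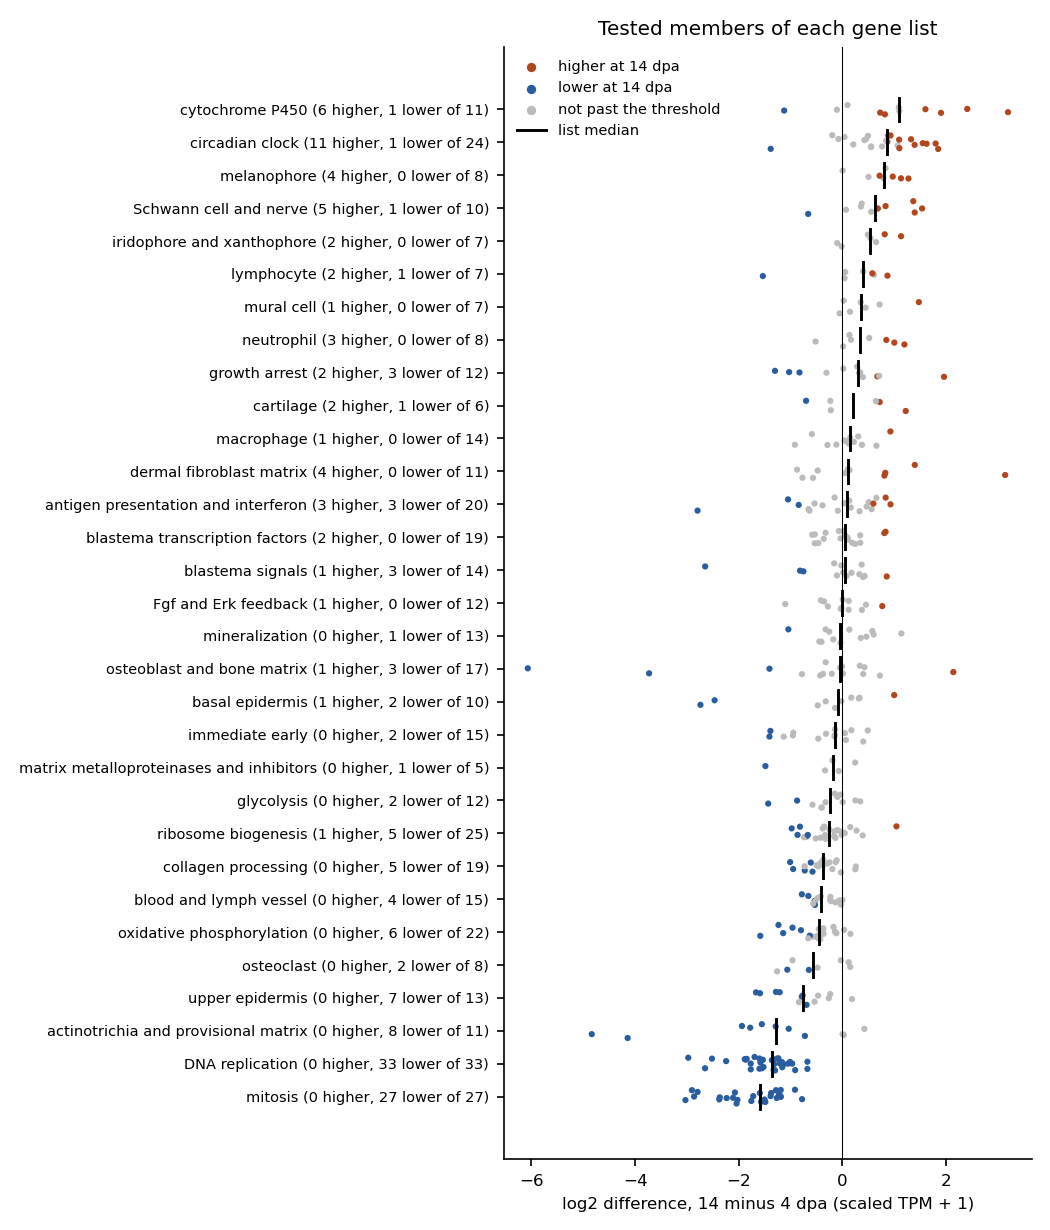
Each point is one tested gene of a list (rows, with counts of genes higher and lower at 14 dpa), placed by its log2 difference, 14 minus 4 dpa, and each black bar is a list's median. The replication and mitosis lists lie to the left of 0, as does most of the actinotrichia list. The clock and cytochrome P450 lists lie mostly to the right, while blastema transcription factors and Fgf and Erk feedback genes centre near 0.

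Bone matrix genes did not move in one direction. Of 17 tested genes of osteoblasts and bone matrix 1 rose, 3 fell (enam, scpp7 and col10a1a) and 8 were held. Of 13 mineralization genes 0 rose, 1 fell and 9 were held, where 7.70%, 9.21% and 64.2% of all genes did so. The first list summed to 7760 to 10128 scaled TPM at 14 dpa against 3851 to 5654 at 4 dpa, with bglap averaging 6069 and 1411. The mineralization list summed to 341.5 to 398.8 against 227.6 to 292.3, so both sums were higher in every 14 dpa library. Most of the first sum at 14 dpa was bglap, however. The median differences of the lists were -0.05 and -0.04, so the sums do not describe most of their genes. The one to rise was bglap, the osteocalcin gene of mature osteoblasts, at 7042, 5847 and 5319 scaled TPM in the 14 dpa libraries and 1430, 1817 and 985 in the 4 dpa libraries (log2 difference 2.14, SE 0.52, adjusted p = 0.0105). Its 14 dpa values were all above the 4 dpa ones, and its difference was 2.99 with library set as a covariate but no longer past the threshold (adjusted p = 0.130). At 7 dpa it was at 3359, 3362 and 11004, a wide spread within one time. The phosphate-regulating endopeptidase gene phex fell, at 7.38, 6.00 and 5.35 against 18.2, 14.3 and 10.1 (log2 difference -1.04, SE 0.21, adjusted p = 0.00326), and did not pass with the covariate (adjusted p = 0.320). The osteoblast transcription factor sp7 was near 1 scaled TPM at both times (0.977 against 0.958) and was held, and runx2b was at 18 against 10.4 without passing (adjusted p = 0.128).

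A few genes of fibrous and lubricated connective tissue rose. Lubricin (prg4a), a secreted glycoprotein that coats joint and tendon surfaces, was at 25.4, 38.5 and 34.1 scaled TPM at 14 dpa and 2.56, 2.37 and 3.47 at 4 dpa (log2 difference 3.14, SE 0.28, adjusted p = 6.67e-06). Tenomodulin (tnmd), a membrane protein of tendons and ligaments, was at 28.9, 30.2 and 29.6 against 12.6, 11.6 and 8.2 (log2 difference 1.4, SE 0.21, adjusted p = 3.69e-04). Neither pair of groups overlapped, and of the 2 genes prg4a kept its call with library set as a covariate (adjusted p = 0.0157, against 0.126 for tnmd). At 0 dpa prg4a averaged 83.6 and at 21 dpa 63.8. Of 11 tested genes of dermal fibroblast matrix 4 rose (prg4a, prg4b, tnmd and bgnb) and 0 fell, against 7.70% and 9.21% of all genes. Without 4 dpa replicate 3, however, there were 4 higher and 3 lower, against 6.92% and 8.95% of all genes. With library set as a covariate 1 was higher, against 0.674% of all genes. The list as a whole summed to 323 to 335 scaled TPM at 14 dpa against 458.5, 478 and 281 in 4 dpa replicates 1, 2 and 3, so it was lower at 14 dpa than in 2 of the 3.

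Growth-restraining and stress-response genes rose singly rather than as a list. Of 12 tested genes 2 were higher, 3 lower and 7 held, against 7.70%, 9.21% and 64.2% of all genes. The gene cdkn1bb was both higher and held. With library set as a covariate 0 were higher and 0 lower. The gene gadd45ba, whose family binds cell-cycle and stress-kinase proteins, was at 715, 657 and 927 scaled TPM in the 14 dpa libraries and 182, 236 and 171 in the 4 dpa libraries (log2 difference 1.96, SE 0.34, adjusted p = 0.00125). Its relative gadd45ga, which the list does not hold, was at 43.3, 52.1 and 64.4 against 4.74, 6.57 and 5.14 (log2 difference 3.06, SE 0.39, adjusted p = 1.09e-04). Both were several-fold higher in every 14 dpa library. By contrast cdkn1a, the p21 inhibitor of cyclin-dependent kinases, fell, at 4.24, 2.34 and 1.90 against 9.48, 10.3 and 5.39 (log2 difference -1.30, SE 0.25, adjusted p = 0.00246). Another gadd45 gene, gadd45aa, fell too, a call that did not survive 4 of 15 single-library omissions (adjusted p up to 0.0795). Of gadd45ga, gadd45ba and cdkn1a, only gadd45ga kept its call with library set as a covariate (adjusted p = 0.0224, against 0.0824 and 0.265). Also from outside the list, pik3ip1, an inhibitor of phosphoinositide 3-kinase, was at 16.1, 20.6 and 19.7 against 2.84, 2.87 and 2.75 (log2 difference 2.37, SE 0.23, adjusted p = 1.08e-05), and eif4ebp3, which restrains cap-dependent translation, was at 32.4, 32.9 and 44.8 against 8.82, 8.72 and 3.59 (log2 difference 2.30, SE 0.43, adjusted p = 0.00221).

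Further large rises had other roles. The prostaglandin D synthase gene ptgdsb.2, of the lipocalin type, was at 831, 912 and 1146 scaled TPM in the 14 dpa libraries and 147, 143 and 140.4 in the 4 dpa libraries (log2 difference 2.72, SE 0.33, adjusted p = 7.36e-05). Its neighbour in name, ptgdsb.1, was at 3210, 3272 and 4454 against 877, 844 and 800.1 (log2 difference 2.1, SE 0.34, adjusted p = 6.50e-04), and how reads were divided between these near copies is uncertain. Both were higher in every 14 dpa library. The forkhead factor foxn1, known from thymic and skin epithelium in mammals, was at 11.8, 15.1 and 10.1 against 1.27, 1.37 and 1.69 (log2 difference 2.44, SE 0.21, adjusted p = 6.22e-06). With library set as a covariate ptgdsb.2 and foxn1 kept their calls (adjusted p = 0.0235 and 0.00307).

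The clock genes formed the largest group of rises among the lists. Of 24 tested circadian genes 11 were higher and 1 was lower, against 7.70% and 9.21% of all genes, with a median of 0.85. The nuclear receptor nr1d1, which represses transcription of the clock's activators, was at 42.8, 51.1 and 34.6 scaled TPM in the 14 dpa libraries and 12.1, 11.7 and 15.8 in the 4 dpa libraries (log2 difference 1.62, SE 0.26, adjusted p = 6.50e-04). The repressor bhlhe40 was at 56.4, 58.6 and 53.9 against 15.0, 13.9 and 17.8 (log2 difference 1.80, SE 0.18, adjusted p = 1.38e-05). Their 14 dpa libraries were all above the 4 dpa ones. Others that rose were cry2, bhlhe41, ciarta and nr1d2b, also repressors, and the output factors dbpb, hlfa and tefa of the PAR bZIP family. The activator npas2 fell instead (2.31, 2.1 and 1.04 against 6.80, 4.47 and 7.75, log2 difference -1.38, SE 0.31, adjusted p = 0.00625), while the other activators clockb, arntl1a and arntl1b were held (0.04, -0.20 and -0.08).

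The clock result had limits of its own. Without 4 dpa replicate 3, whose clock list summed to 385 scaled TPM against 297 and 265 in replicates 1 and 2 and 541 to 724 at 14 dpa, 15 genes were higher and 1 lower. With library set as a covariate 1 was higher and 0 lower, bhlhe40 (1.56, adjusted p = 0.0280), on rescaling to a fixed total 2 were higher and 1 lower, and unscaled TPM gave 4 and 1. At 7 dpa, where the library sets met, the library in the set of the 14 dpa ones was higher by a median of 0.31 over the list. The part of the library set in the clock result was not tested beyond these values. The labels give no hour of collection.

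**Figure D3:**
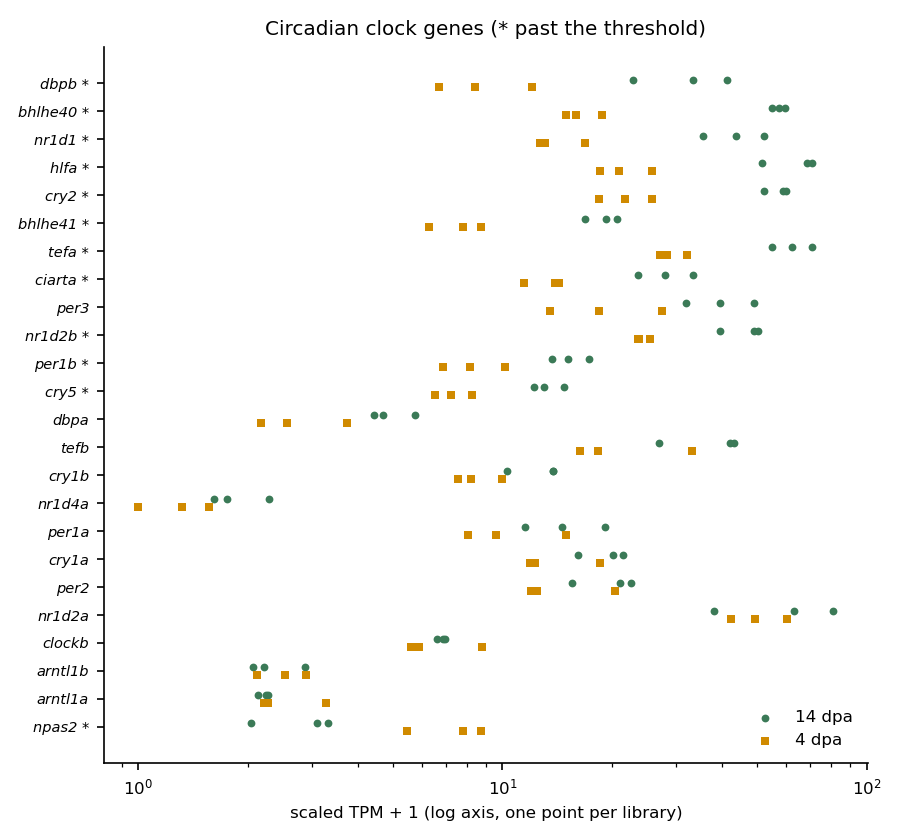
Scaled TPM + 1 (log axis) of the 24 tested clock genes, one point per library, with 14 dpa as green circles and 4 dpa as orange squares. Genes run from the largest rise at the top, dbpb, to the one fall at the bottom, npas2, and an asterisk marks the 12 that passed the threshold.

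Several cytochrome P450 enzymes rose. Of 11 tested P450 genes 6 were higher and 1 lower, against 7.70% and 9.21% of all genes, with a median of 1.09, and the list summed to 252 to 314 scaled TPM at 14 dpa and 110 to 123 at 4 dpa. The gene cyp7a1, the rate-limiting enzyme of bile acid synthesis in liver, was at 16, 32.4 and 30.8 in the 14 dpa libraries and 1.6, 1.05 and 3.42 in the 4 dpa libraries (log2 difference 3.19, SE 0.32, adjusted p = 1.32e-05). The aryl hydrocarbon receptor target cyp1a was at 31.5, 31.2 and 27.6 against 3.83, 4.46 and 6.60 (log2 difference 2.41, SE 0.23, adjusted p = 1.08e-05). Both groups were clear of each other for either gene, and with library set as a covariate both kept their calls (3.87 and 2.04, adjusted p = 0.00281 and 0.0222). The sterol hydroxylases cyp8b1 (11.2 against 3.00, log2 difference 1.6, SE 0.27, adjusted p = 0.00107) and cyp8b2 (69.7 against 17.8, log2 difference 1.90, SE 0.36, adjusted p = 0.00214) rose as well, and reads shared between such copies could not be examined. The values of cyp8b3 (84.3 against 38.5) and of the sterol demethylase gene cyp51 (20.4 against 8.15) did not pass (adjusted p = 0.0510 and 0.0688). The P450 gene to fall was cyp26a1, which degrades retinoic acid, at 4.01, 3.99 and 4.05 against 10.3, 9.90 and 9.59 (log2 difference -1.12, SE 0.17, adjusted p = 3.88e-04), while its relative cyp26b1 was held (27.5 ± 0.740 against 29.7 ± 3.16, SD, n = 3).

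Liver is a place where several of these enzymes are best known, so hepatocyte markers were read beside them. Of 12 listed hepatocyte genes 2 reached the filter, both higher at 14 dpa. The list summed to 2125 to 2477 scaled TPM at 14 dpa and 699 to 992 at 4 dpa, almost all of it from the retinol carrier rbp4 (2160, 2124 and 2476 against 914, 990.4 and 698, log2 difference 1.39, SE 0.43, adjusted p = 0.0395), a call that did not survive 7 of 15 single-library omissions (adjusted p up to 0.110, without 4 dpa replicate 3). The hepatocyte genes apoa2 and serpina1 were at 0 in all 6 libraries, as was ctrb1 of the pancreas list and tnni2a.1 and pvalb2 of the skeletal muscle list, where 2 of 11 and 2 of 17 genes reached the filter. The part of such cells in the P450 result was not tested beyond these values.

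Some myelin genes rose. For Schwann cells and nerve 5 of 10 tested genes were higher and 1 lower, against 7.70% and 9.21% of all genes. The calls of cldnk, which rose, and pmp22b, which fell, did not survive 3 and 6 of 15 single-library omissions. The whole list summed to 119 to 166 scaled TPM at 14 dpa. At 4 dpa it summed to 109, 113 and 66.9 in replicates 1, 2 and 3, without overlap. Myelin protein zero (mpz) was at 4.56, 3.44 and 3.68 against 0.825, 0.569 and 1.22 (log2 difference 1.39, SE 0.21, adjusted p = 3.57e-04), and the myelin proteolipid gene plp1b at 3.96, 3.72 and 3.92 against 0.619, 0.606 and 0.813 (log2 difference 1.54, SE 0.18, adjusted p = 4.88e-05). Both were several-fold higher in each 14 dpa library and kept their call with the set covariate (adjusted p = 0.0359 and 0.00362), while the glial regulators sox10, foxd3 and erbb3b were held. Of 7 tested mural cell genes 1 rose, against 7.70% of all genes, and 4 were held. That one, smooth muscle actin (acta2), of contractile vessel-wall cells, was at 5.54, 6.56 and 6.14 against 1.58, 1.70 and 1.37 (log2 difference 1.47, SE 0.16, adjusted p = 3.12e-05) and kept its call with the covariate (adjusted p = 0.0133). Of 15 vessel lining genes 13 were held, 4 fell (2 of them within the bounds for held genes) and 0 rose, against 64.2%, 9.21% and 7.70% of all genes, and the list summed to 54.1 to 61.2 at 14 dpa against 87.4 to 90.9 at 4 dpa. The fenestral protein gene plvapb was at 16.2, 13.1 and 15.6 against 24.9, 28.9 and 25.6 (log2 difference -0.78, SE 0.16, adjusted p = 0.00426), and its adjusted p with the covariate was 0.174. The other calls, of egfl7, pecam1 and stab1, did not survive 10, 8 and 4 of 15 single-library omissions (adjusted p up to 0.165, 0.126 and 0.115), and 0 of the list passed with the covariate or on unscaled TPM.

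For pigment, myeloid and bone-resorbing cells the comparison turned on 4 dpa replicate 3. Of 8 melanophore genes 4 were higher and 0 lower, against 7.70% and 9.21% of all genes. The receptor tyrosine kinase kita was one of the 4 (11.8, 14.4 and 10.4 against 5.12, 5.03 and 4.79, log2 difference 1.13, SE 0.21, adjusted p = 0.00169). Without that library 1 of the 8 was higher, against 6.92% of all genes. With library set as a covariate or on unscaled TPM 0 were. The melanophore list summed to 75.8 to 92.8 scaled TPM at 14 dpa and to 62.0, 62.5 and 23.1 in 4 dpa replicates 1, 2 and 3. Iridophore and xanthophore genes summed to 57.9 to 70.9 against 57, 65.5 and 17.1, and macrophage genes to 347 to 443 against 461, 609 and 183, so without replicate 3 the macrophage sum was lower at 14 dpa than in each remaining 4 dpa library. Osteoclast genes summed to 194 to 236 against 607, 673 and 177. The osteoclast protease ctsk was at 177, 135 and 136 against 435, 546 and 102 (log2 difference -0.96, SE 0.49, adjusted p = 0.209) and the tartrate-resistant phosphatase acp5a at 9.17, 10.9 and 13.9 against 67.4, 59.7 and 4.99 (log2 difference -1.26, SE 0.66, adjusted p = 0.217). Without replicate 3 both fell (-1.72 and -2.41, adjusted p = 0.00447 and 2.15e-04). Of 8 osteoclast genes 4 were then lower, where 8.95% of all genes were. With all libraries 2 were lower, where 9.21% of all genes were. Neither ctsk nor acp5a passed with library set as a covariate (adjusted p = 0.940 and 0.887).

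**Figure D4:**
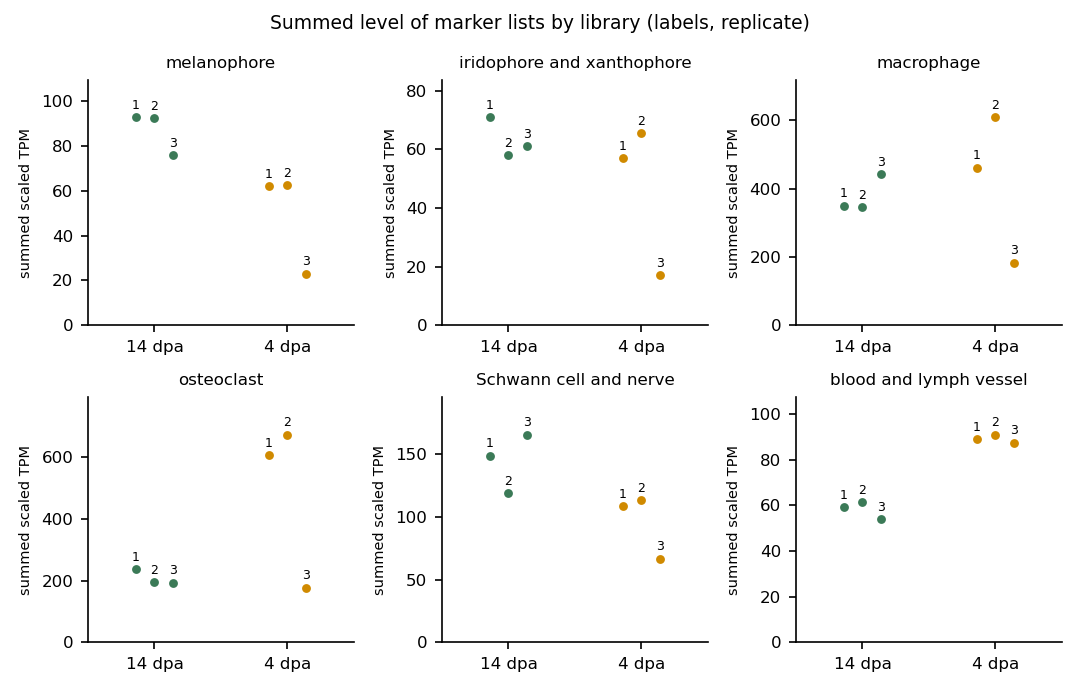
Summed scaled TPM of 6 marker lists in the 3 libraries of 14 dpa (left, green) and the 3 of 4 dpa (right, orange), labelled by replicate. Replicate 3 at 4 dpa lies far under replicates 1 and 2 for the pigment, macrophage and osteoclast lists (23.1 against 62.0 and 62.5 for melanophores). It is also under them for Schwann cells and nerve (66.9 against 109 and 113) and level with them for vessels (87.4 against 88.8 and 90.9).

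Immune genes showed no single direction. Of 20 genes of antigen presentation and interferon response 3 were higher and 3 lower, against 7.70% and 9.21% of all genes. The calls of stat1a, mxa, irf1b, mhc1uba and mxb did not survive 4, 3, 2, 2 and 1 of 15 single-library omissions. With library set as a covariate 0 of the list were higher or lower. The MHC class II gene mhc2dab was at 8.03, 6.70 and 11.1 scaled TPM in the 14 dpa libraries and 52.2, 62.0 and 83.2 in the 4 dpa libraries (log2 difference -2.80, SE 0.56, adjusted p = 0.00323), while the class II invariant chain cd74a was at 6660, 4556 and 4195 against 3498, 5130 and 2194 without passing the threshold (adjusted p = 0.333). The groups overlapped for cd74a and not for mhc2dab. Reads could have been divided among related MHC genes, and mhc2dab did not pass with library set as a covariate (-2.85, adjusted p = 0.226). The chemokine ccl19b, which guides lymphocytes and dendritic cells, rose and was level within each time (83.0, 93.9 and 95.5 against 14.5, 17.1 and 16.3, log2 difference 2.44, SE 0.37, adjusted p = 4.07e-04), with an adjusted p of 0.0111 under the covariate. Of 8 neutrophil genes 3 rose and 0 fell, where 7.70% and 9.21% of all genes did. The granule astacin npsn was one of the 3 (12.3 against 4.93, log2 difference 1.2, SE 0.24, adjusted p = 0.00359). Without 4 dpa replicate 3 the list had 2 higher, and with library set as a covariate 0. The call of mpx did not survive 3 of 15 single-library omissions. The list sums overlapped, at 56.8 to 78.9 scaled TPM at 14 dpa against 43.9 to 76.3 at 4 dpa. Of 7 lymphocyte genes 2 rose and 1 fell, against 7.70% and 9.21% of all genes. The fall was that of the costimulatory receptor tnfrsf9a (0.991 against 4.82, log2 difference -1.54, SE 0.23, adjusted p = 3.49e-04). Of the rises, that of ikzf1 did not survive 3 of 15 single-library omissions.

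Type I collagens and periostin, which were lower at 0 dpa, were at similar levels at both times. The main bone and dermis collagen chain col1a1a was at 461, 451 and 271 scaled TPM in the 14 dpa libraries and 413, 364 and 578 in the 4 dpa libraries (log2 difference -0.21, 95% interval -0.88 to 0.47) and the ranges overlapped in part. Periostin b (postnb), a matricellular protein, was at 536, 528 and 541 against 588, 598 and 412 (log2 difference 0.03, 95% interval -0.43 to 0.48). The hyaluronan link protein gene hapln1a was at 33.6, 35.7 and 34.1 against 33.2, 30.9 and 39.7 (log2 difference 0.00, 95% interval -0.43 to 0.43). At 0 dpa col1a1a averaged 157 and postnb 339, below both later times, while hapln1a averaged 32.9, level with them. These 3 and col1a1b, col1a2 and sparc, an abundant bone glycoprotein at 1374 against 1078, stayed held without 4 dpa replicate 3. With library set as a covariate col1a1a was not held (difference -0.58, SE 0.58), where 22.8% of all genes were. Of 19 collagen-processing genes 13 were held and 5 fell, against 64.2% and 9.21% of all genes, the clearest fall being that of the collagen chaperone serpinh1a (11.6 ± 0.867 against 23.5 ± 1.80, SD, n = 3, difference -0.95, adjusted p = 3.69e-04). Single-library omissions ended the calls of loxl2b and plod3 in 11 cases of 15 each and that of loxl3b in 5 (adjusted p up to 0.138, 0.149 and 0.0916). Without 4 dpa replicate 3 the list had 9 held and 4 lower, and with library set as a covariate or on unscaled TPM 0 were lower.

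Of 19 tested blastema transcription factors 13 were held and 2 rose, which is near the 64.2% held and 7.70% higher over all genes. Under the library set covariate 4 were held and 0 were higher or lower. The posterior Hox gene hoxa13b, which specifies the distal appendage, was at 73.0, 57.8 and 79.0 against 67.3, 65.9 and 44.8 (log2 difference 0.24, 95% interval -0.28 to 0.77), and hoxa13a was at 16 against 15.4 (log2 difference 0.05, 95% interval -0.29 to 0.39). Both stayed held without 4 dpa replicate 3, but hoxa13b was not held with the covariate (difference 0.42, SE 0.46). At 0 dpa they averaged 54.3 and 11.1, so hoxa13b was near its 0 dpa level at both times. The homeobox gene msx1b, a blastema marker, was at 17.7, 14.7 and 18.7 against 26.1, 26.6 and 15.4 (log2 difference -0.36, 95% interval -0.91 to 0.19), and the mesenchymal factor twist1a at 13.0, 11.3 and 19.2 against 21.3, 17.3 and 6.62 (log2 difference 0.05, 95% interval -0.69 to 0.80). In both the low 4 dpa value was replicate 3, and without it neither was held and the differences were -0.61 and -0.42. The mesenchymal factor prrx1a was also held with all libraries (23.1 ± 1.69 against 34.2 ± 5.76, SD, n = 3) and fell without replicate 3 (-0.68, adjusted p = 0.0240). The gene msx2b rose (7.51, 6.76 and 8.97 against 3.69, 4.11 and 3.87, log2 difference 0.83, SE 0.20, adjusted p = 0.0104), with an adjusted p of 0.0557 under the set covariate.

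Fgf and Erk feedback genes, which read out the pathway named in the series title, included 9 held of 12, with 1 higher and 0 lower, against 64.2% held over all genes, and with library set as a covariate 3 were held and 0 called. The Fgf-induced factor etv4 was at 8.92, 9.53 and 7.65 against 12.9, 13.5 and 9.63 (log2 difference -0.42, 95% interval -0.89 to 0.05) and etv5a at 6.13, 7.72 and 7.38 against 7.90, 7.71 and 6.00 (log2 difference -0.02, 95% interval -0.39 to 0.35). Of these, etv5a stayed held without 4 dpa replicate 3 and etv4 did not. The feedback inhibitor spry2 rose (11.3, 9.01 and 8.69 against 4.90, 4.76 and 6.10, log2 difference 0.77, SE 0.22, adjusted p = 0.0256), a call that did not survive 4 of 15 single-library omissions (adjusted p up to 0.107, without 14 dpa replicate 1). Without 4 dpa replicate 3 the feedback list had 1 higher and 2 lower. Of 5 tested genes of matrix metalloproteinases, which cut collagen during remodelling, and their inhibitors, the 4 proteinases were held. Of these mmp2 and mmp14a stayed held without replicate 3 and mmp9 did not (77.3, 74.5 and 81.5 against 134, 104 and 50.4), and with library set as a covariate 0 of the 5 were held. The inhibitor timp2b fell (1.84, 2.23 and 2.75 against 7.57, 5.83 and 11.9, log2 difference -1.49, SE 0.24, adjusted p = 6.02e-04).

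**Figure D5:**
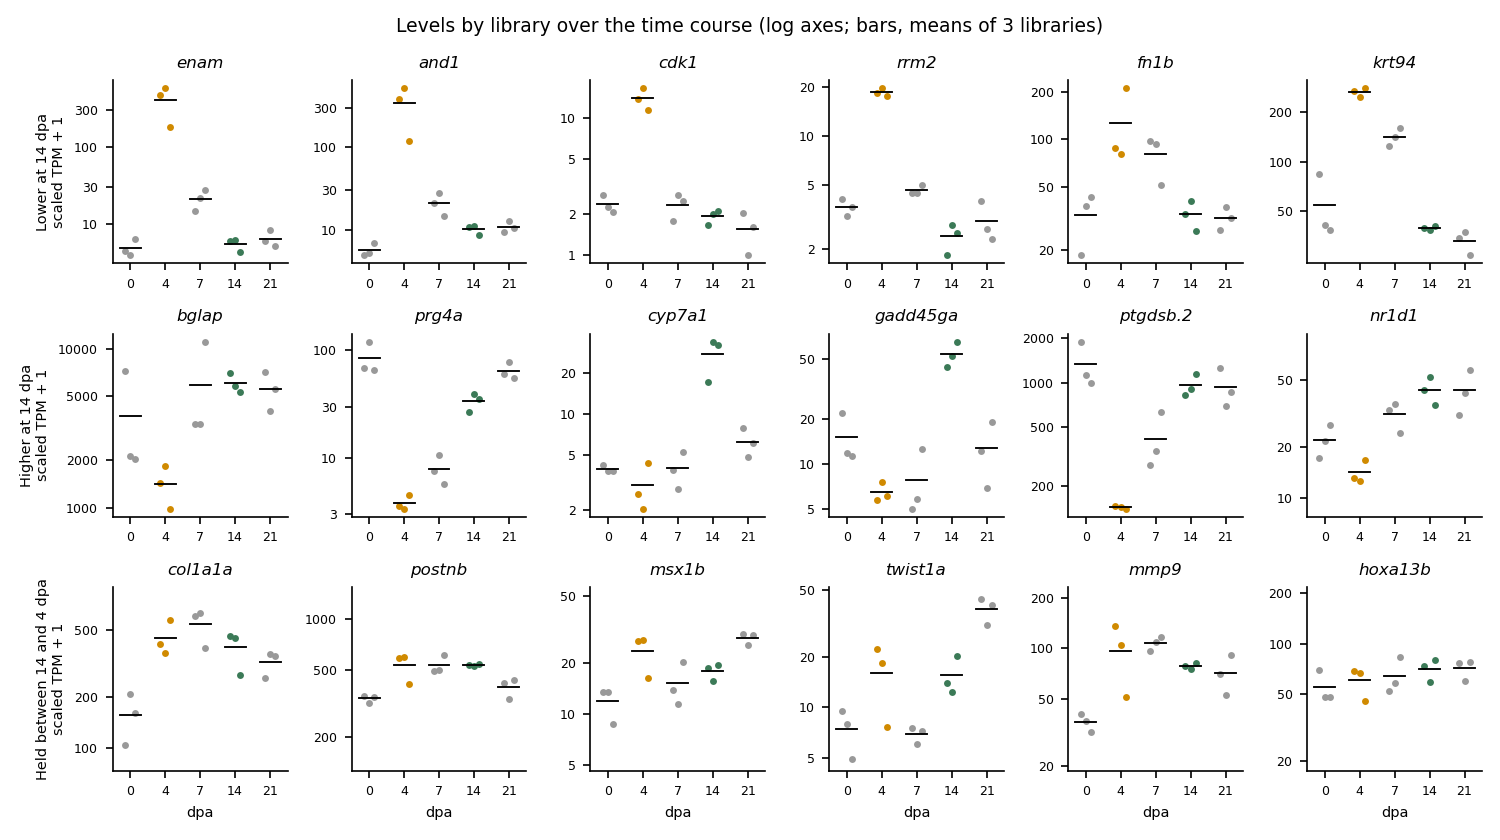
Scaled TPM + 1 (log axes) of 18 genes at 0, 4, 7, 14 and 21 dpa, one point per library and bars at means of 3, with 4 dpa in orange and 14 dpa in green. The top row shows genes lower at 14 dpa, such as enam at 4.48 against 406.5 scaled TPM, the middle row genes that were higher, such as prg4a at 32.7 against 2.80, and the bottom row genes held between the times, such as postnb at 534.6 against 532.6.

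In energy metabolism the genes that passed the threshold all fell. Of 22 nuclear genes of oxidative phosphorylation 6 fell, 0 rose and 8 were held (median -0.46), against 9.21%, 7.70% and 64.2% of all genes. The complex III core subunit uqcrc1 fell (8.90, 12.1 and 15.8 against 29.2, 32.4 and 22.2, log2 difference -1.14, SE 0.27, adjusted p = 0.00901), a call lost without 14 dpa replicate 1 (adjusted p = 0.0505). The calls of cox5ab, cox6b1, atp5f1b and uqcrfs1 did not survive 3, 3, 6 and 5 of 15 single-library omissions. Of 12 glycolysis genes 2 fell and 9 were held, the clearest fall being that of phosphoglycerate mutase pgam1a (11.9, 10.5 and 16.1 against 38.7, 42.7 and 27.7, log2 difference -1.43, SE 0.28, adjusted p = 0.00267). With library set as a covariate 0 genes of either list passed. Of 15 immediate early genes, which respond quickly to stimuli, 2 were lower, 0 higher and 6 held, against 9.21%, 7.70% and 64.2% of all genes. The 2 were fosl2 (6.23 against 18, log2 difference -1.39, SE 0.27, adjusted p = 0.00242) and junbb. The call of junbb did not survive 3 of 15 single-library omissions (adjusted p up to 0.170).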

How the data were processed

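RNA-seq of amputation-plane fin tissue was deposited by the authors as 1 table of TPM (a relative abundance corrected for transcript length) for 14836 genes in 15 libraries, 3 at each of 5 times. Per the labels' protocols, libraries were made from total RNA by reverse transcription with Maxima H-minus, PCR, Tn5 tagmentation and gel size selection. The submitters' processing notes name Trim Galore 0.6.7, cutadapt 3.5, Salmon 1.4.0 and danRer11, with no role or order, and the gene annotation is not given in the sources used here. TPM keeps no absolute depth, so only relative depth was recovered, from the steps of low values. The same steps gave the effective-length offsets and library sets.

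The rRNA gene zgc:158463 was removed and the rest scaled by median of ratios, because its share differed widely between libraries. The 10234 genes that reached a TPM of 1 in 3 or more libraries were kept, and log2(scaled TPM + 1) was fitted over all 15 libraries with limma 3.58.1 in R 4.3.3, with time as the factor and Benjamini-Hochberg adjustment over all tested genes. The 95% interval is that of the same fit. The procedure was tested on simulated data. All adjusted p-values in the text come from limma.

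The comparison and the 35 gene lists were chosen with earlier results of these data known. Genes were named by rule: the 12 largest rises and 12 largest falls past the threshold with a mean of at least 10 scaled TPM at the higher time and no overlap between libraries, passing over 3 and 2 genes with clone names; up to 3 genes per direction and 3 held genes from each list; and the 10 highest genes at each time. Genes named beyond these were chosen after their values were seen. Alternatives changed the scaling, pseudocount, filter, libraries fitted, weights, trend, replicate block and library set. Those on library set without 4 dpa replicate 3, on the 6 libraries without it, and on genes with a mean of at least 10 at both times were chosen after seeing the data. No sequences were used here.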

Additional observations from a re-analysis of the deposited data

How the results depend on the processing

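The number of genes past the threshold depended on the processing, and the cause was not tested. Against 1731 genes called (788 higher, 943 lower), unscaled deposited TPM gave 482 (203 and 279), rescaling to a fixed total 1152 (238 and 914), a filter at a TPM of 5 gave 1142 (599 lower), library weights 3383 (1544 and 1839), library set as a covariate 200 (69 and 131), the same less 4 dpa replicate 3 gave 190 (66 and 124), and the 6 libraries less 4 dpa replicate 3 gave 3033 (1338 and 1695). Held genes, 6571, came to 4040 on deposited TPM, 3634 on rescaling, 4332 with a pseudocount of 0.1, 10562 with no filter and more genes tested, 3451 at a TPM of 5 and fewer genes tested, 1265 among genes with a mean of at least 10, and 2330 and 2407 with library set as a covariate with and without 4 dpa replicate 3. Called members of the lists, 179, came to 90 on deposited TPM, 119 at a TPM of 5, and 58 and 55 with library set in those 2 ways. Leaving out 1 library gave 1114 to 1947 called genes, 494 to 886 higher, 620 to 1061 lower, 5713 to 6858 held and 136 to 186 list members. Of 125 named genes past the threshold, 57 kept their call on deposited TPM, 87 on rescaling, 37 with library set, 108 without 4 dpa replicate 3 and 94 without 14 dpa replicate 2, with 0 of opposite sign in any setting run. The replicate block gave 1594 genes (736 higher, 858 lower). Deviations from the mean of each time correlated at 0.0173, -0.426 and -0.4075 between same-numbered libraries, which showed no pairing by number. The highest correlation, 0.4452, was between 14 dpa replicate 2 and 4 dpa replicate 3. These had the highest rRNA shares of their times (47.4 and 71.6%), so the values cannot show that same-numbered pools were unrelated. By these deviations not every library correlated best with its own number. Relative depth as low as 0.126 outside rRNA limits low genes most in 4 dpa replicate 3.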

Other observations

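Some further genes, chosen after their values were seen and belonging to no list, differed between the times. Among genes of the Sm ring, the protein core of the splicing snRNPs, snrpg was at 9.47, 7.90 and 13.4 scaled TPM in the 14 dpa libraries and 55.8, 71.7 and 35.8 in the 4 dpa libraries (log2 difference -2.27, SE 0.37, adjusted p = 7.57e-04), snrpd1 at 29.3, 21.8 and 37.9 against 113, 139 and 82.6 (log2 difference -1.88, SE 0.38, adjusted p = 0.00317) and snrpb at 71.1, 60.1 and 63.0 against 126, 129.8 and 116 (log2 difference -0.93, SE 0.18, adjusted p = 0.00238). Their adjusted p was 0.10, 0.351 and 0.370 with library set as a covariate. The falls of other Sm genes were less stable, those of snrpd2, snrpe, snrpd3 and snrpf not surviving 8, 5, 2 and 2 of 15 single-library omissions (adjusted p up to 0.163, 0.108, 0.0563 and 0.0683). The distal Hox gene hoxc12a was at 109.6, 128 and 137 against 44.4, 53.7 and 34.7 (log2 difference 1.49, SE 0.23, adjusted p = 4.26e-04) and hoxc11a at 7.48, 6.54 and 8.47 against 2.2, 2.66 and 4.10 (log2 difference 1.11, SE 0.17, adjusted p = 5.31e-04), with adjusted p of 0.177 and 0.180 under the covariate. At 21 dpa these averaged 93.8 and 10.5, and at 0 dpa 33.3 and 2.83.

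Sterol genes varied within single times as well as between them. The cholesterol synthesis gene hsd17b7 was at 53.9, 90.2 and 102 in the 14 dpa libraries and 13.1, 15.2 and 16.5 in the 4 dpa libraries (log2 difference 2.34, SE 0.43, adjusted p = 0.00194), and the sterol oxidase gene msmo1 at 14.7, 33.0 and 37.9 against 8.08, 7.69 and 6.04 (log2 difference 1.74, SE 0.39, adjusted p = 0.00656). The sulfotransferase gene sult2st3 was at 65.4, 66.8 and 69.5 against 11.4, 6.4 and 12.2 (log2 difference 2.68, SE 0.80, adjusted p = 0.0333), and at 30.7, 1.26 and 47.6 in 7 dpa replicates 1, 2 and 3, where replicate 2 is the library in the set of the 14 dpa ones. Its call did not survive 6 of 15 single-library omissions (adjusted p up to 0.106). The inducible nitric oxide synthase gene nos2a was at 164, 190.0 and 194 against 31.4, 35.1 and 76.4 (log2 difference 2.03, SE 0.33, adjusted p = 7.57e-04), the transcription factor gene klf11a at 15.9, 18.2 and 12.4 against 3.28, 2.86 and 2.51 (log2 difference 2.07, SE 0.17, adjusted p = 4.04e-06), and the keratin gene krtt1c19e at 1697, 1530 and 1665 against 489, 479 and 496 (log2 difference 1.74, SE 0.30, adjusted p = 0.00111). Of these 3 genes klf11a kept its call with library set as a covariate (adjusted p = 0.00210, against 0.228 and 0.112).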
